A study of Mus musculus with 2 samples.

Results

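The transcripts of 10 AP-1 and immediate early transcription factor genes, chosen by name, were examined in whole-kidney RNA of mice with acute kidney injury (AKI). The choice was made with earlier results of these data known. All 10 were among the 19829 genes of the deposited table. They are the Fos family (*Fos*, *Fosb*, *Fosl1*, *Fosl2*), the Jun family (*Jun*, *Junb*, *Jund*) and *Atf3*, *Egr1* and *Myc*. One library came from a wild-type mouse (WT+AKI) and 1 from an *Inmt* transgenic mouse (TG+AKI). *Inmt* encodes indolethylamine N-methyltransferase, and the transgene overexpresses it in proximal tubules. The promoter that drives it was not given in the sources used here.

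By the study's methods the mice were C57BL/6 males given voclosporin, a calcineurin inhibitor, by intraperitoneal injection between the ages of 8 and 10 weeks, 30 mg/kg each day over 2 weeks. The wild-type mice were littermates. Bilateral renal ischemia of 30 min followed by reperfusion (I/R) was performed at 14 weeks. Kidney collection was given as 24 h after I/R in one place and as 48 h in another. The treatment field of both samples names no treatment, whereas the series design names voclosporin, and these libraries include no sham or vehicle kidney. The question here is how these 10 transcripts stood in the injured kidney of either genotype. Nothing in the labels says that a library held more than 1 mouse, and the labels give whole kidneys where the methods give the left kidney.

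Each group is a single library, so the differences have no replicate behind them. Intervals are 95% intervals of counting error in these 2 libraries and do not cover differences between mice. Without molecular identifiers, PCR copies count as separate reads, so the true error is larger. Normalised read counts were deposited, and whole reads were recovered from them, 38542764 (WT+AKI) and 36427421 (TG+AKI). A single read was worth 0.0236 (WT+AKI) and 0.0302 (TG+AKI). The floor of 3 reads was 0.0708 and 0.0906. As a check of the labels, the normalised count of *Inmt* was 10.4 (WT+AKI) and 403 (TG+AKI), although the TG+AKI title also contains the term conditional knockout.

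AP-1 is a dimer of basic leucine zipper (bZIP) proteins, in which a Fos protein pairs with a Jun protein, or Jun proteins pair with each other. Many of these genes, with *Egr1* and *Myc*, are immediate early genes: signals through MAP kinases, serum response factor (SRF) and CREB switch them on within minutes, without new protein synthesis, and their mRNAs are short-lived. Injured kidney tubules are known to induce *Atf3*, *Egr1*, *Fos*, *Jun* and *Myc* after ischemia. *Fosl1* (FRA-1) and *Fosl2* (FRA-2) respond later and lack the strong activation domain of *Fos*.

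Some elements of rapid induction lie in promoters close to the start of transcription. The promoters of 4 members are shown because they share the letters TGACG within 150 bases before the start. These letters are the core of the cAMP response element. Sequences are those of RefSeq on GRCm38.p6, from 150 bases before to 50 bases after the RefSeq start, 5′ to 3′ on the strand of the gene. Capitals mark matches to any motif searched, on either strand. The windows are *Fos* at chr12:85473740-85473939 (+ strand), *Fosb* at chr7:19309996-19310195 (- strand), *Junb* at chr8:84978699-84978898 (- strand) and *Atf3* at chr1:191183284-191183483 (- strand).
Fos: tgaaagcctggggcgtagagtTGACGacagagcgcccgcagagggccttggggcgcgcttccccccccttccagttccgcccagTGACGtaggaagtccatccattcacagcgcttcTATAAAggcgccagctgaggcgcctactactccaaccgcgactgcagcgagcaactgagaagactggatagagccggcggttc
Fosb: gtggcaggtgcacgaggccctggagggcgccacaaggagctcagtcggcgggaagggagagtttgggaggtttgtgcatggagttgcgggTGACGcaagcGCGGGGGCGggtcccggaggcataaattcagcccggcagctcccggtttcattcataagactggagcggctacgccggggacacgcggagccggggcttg
Junb: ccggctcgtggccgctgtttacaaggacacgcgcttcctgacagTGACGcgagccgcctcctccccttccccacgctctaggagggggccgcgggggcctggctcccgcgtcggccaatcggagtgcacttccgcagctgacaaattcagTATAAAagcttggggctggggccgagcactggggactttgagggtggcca
Atf3: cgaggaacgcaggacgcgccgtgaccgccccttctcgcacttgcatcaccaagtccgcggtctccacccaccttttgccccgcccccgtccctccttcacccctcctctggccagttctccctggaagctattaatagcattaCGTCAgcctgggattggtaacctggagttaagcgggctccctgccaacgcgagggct

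RefSeq windows of 300 bases, from 250 before to 50 after the start, were matched for 7 members, the 4 above and *Fosl2*, *Jun* and *Jund*. *Fosl1*, *Egr1* and *Myc* had none in the table. TGACG was present in 4 of the 7 windows, against 20.8% of all 32851 windows. This short motif was chosen after the sequences were seen, and it lies inside the longer TGACGTCA. In *Atf3* it reads CGTCA, since it lies on the opposite strand, and its first base is at position -7 from the start. *Fos* holds it at positions -129 and -66, *Junb* at -106 and *Fosb* at -60.

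TATAAA was found in *Fos* and *Junb*, and in 13.6% of all windows. In *Fos* it begins at position -33. In *Junb* it begins at the first base of the RefSeq transcript, and the GENCODE start of that gene lies 30 bases further downstream. The EGR motif GCGNGGGCG was found in *Fosb* and *Fosl2*, and in 5.55% of all windows. None of the 7 windows held TGACTCA (5.20% of all windows), TGACGTCA (1.79%), CACGTG (7.15%) or a CArG box (1.63%), the element bound by SRF. Most windows of any gene lack these motifs, so their absence from 7 windows says little. Elements further than 250 bases before the start, and sites that differ from the searched letters, were not sought. The RefSeq start of *Jund* lies 1210 bases upstream of its GENCODE start, so that its window may lie away from the start in use. The GENCODE gene of *Atf3* begins far upstream, at position -34706 from the RefSeq start, and that of *Fosl2* at -671, so their windows are those of 1 annotated start.

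All 10 genes had a lower normalised count in TG+AKI than in WT+AKI, and the counting interval of the ratio lay below 1 for each. For 8 of the 10 the whole interval lay beyond 2-fold, and *Fos* and *Jund* differed least, with overlapping intervals.

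*Fosl1* (gene ID 14283) had the largest difference. It held 1745 reads in WT+AKI, a normalised count of 41.2, and 1 read in TG+AKI, a normalised count of 0.0302, which is under the floor. The ratio TG+AKI to WT+AKI was 0.000734 [1.86e-05 to 0.00409], an interval as wide as 1 read allows. Its log2 fold change of -5.35, on the log2(value + 1) scale used for all log2 values here, depends on the pseudocount and was -8.31 with a pseudocount of 0.1 and -2.35 with 10. The gene overlaps *Ccdc85b* on the opposite strand over 1163 exonic bases, and it was not stated whether reads were counted by strand. *Ccdc85b* had 796 reads in WT+AKI and 345 in TG+AKI, where *Fosl1* had 1.

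*Fosl2* (gene ID 14284) had a normalised count of 88.8 in WT+AKI from 3763 reads, against 14.7 in TG+AKI from 488 reads. It was 6.02-fold lower in TG+AKI [5.48 to 6.63]. *Fosb* (gene ID 14282) was the least abundant member in WT+AKI, with normalised counts of 6.49 from 275 reads and 1.12 from 37 reads, a 5.81-fold lower level [4.11 to 8.42]. The intervals of *Fosl2* and *Fosb* overlapped.

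*Fos* (gene ID 14281), the founding member of the family and the classical marker of acute stimulation, had normalised counts of 11.1 in WT+AKI from 470 reads and 6.55 in TG+AKI from 217 reads. It was 1.69-fold lower in TG+AKI [1.44 to 2.0]. Its interval overlapped with those of none of the 3 other Fos genes.

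In the Jun family the difference was largest for *Junb*, followed by *Jun* and *Jund*, and the 3 intervals did not overlap. *Jun* (gene ID 16476), whose product is the target of JNK, had normalised counts of 88.8 from 3763 reads and 25.8 from 856 reads, 3.43-fold lower in TG+AKI [3.19 to 3.70]. Its read count in WT+AKI equalled that of *Fosl2* by coincidence. *Junb* (gene ID 16477) had normalised counts of 68.0 from 2881 reads and 16.5 from 546 reads, 4.12-fold lower [3.76 to 4.52].

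*Jund* (gene ID 16478), which many tissues express without stimulation, had normalised counts of 91.4 from 3874 reads and 52.3 from 1733 reads, 1.75-fold lower [1.65 to 1.85]. Its interval overlapped with that of *Fos*. On the log2 scale *Jund* changed by -0.79, and by -1.06 when both libraries were scaled to equal totals, which takes it past 2-fold. Each of the 3 Jun genes is a single exon in its longest transcript, and each overlaps a gene on the opposite strand, *Junos* (*Jun*, 232 exonic bases), *Prdx2* (*Junb*, 173) and *Gm11175* (*Jund*, 877). *Junos* had normalised counts of 4.81 and 1.06, and *Prdx2* 99.4 and 115, and *Gm11175* was not analysed here.

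*Atf3* (gene ID 11910), a stress-induced bZIP factor that often acts as a repressor, had the second largest difference. Its normalised counts were 27.2 from 1153 reads in WT+AKI and 1.81 from 60 reads in TG+AKI, 15.0-fold lower [11.6 to 19.8]. *Myc* (gene ID 17869), a growth regulator that pairs with MAX, had normalised counts of 36.0 from 1526 reads and 4.86 from 161 reads, 7.40-fold lower [6.29 to 8.76]. *Egr1* (gene ID 13653), a zinc finger factor, had normalised counts of 97.1 from 4117 reads and 28.7 from 949 reads, 3.39-fold lower [3.16 to 3.64]. The intervals of *Egr1* and *Jun* overlapped nearly throughout.

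**Figure D1:**
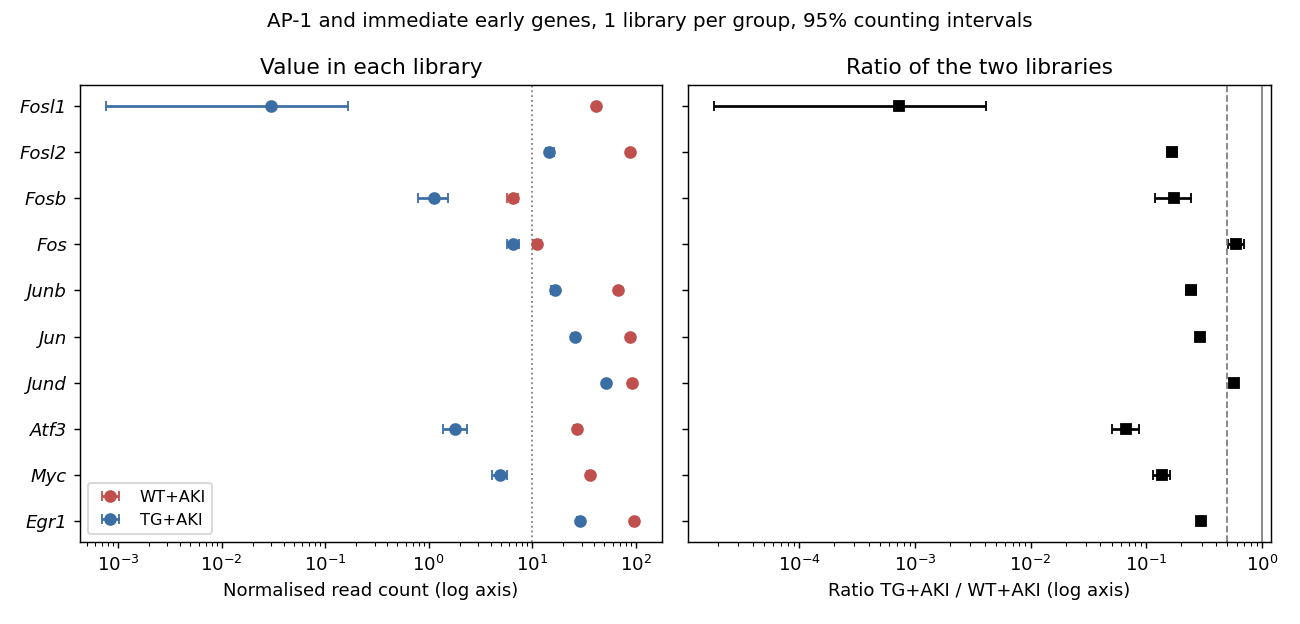
Normalised read counts of the 10 genes in WT+AKI (red) and TG+AKI (blue) on a log axis (left) and the ratio of TG+AKI to WT+AKI on a log axis (right), with 95% counting intervals; the dotted line marks 10, the dashed line a ratio of 0.5 and the solid line 1. All 10 ratios lie below 1, from 0.591 for *Fos* down to 0.000734 for *Fosl1*.

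The members were then set among all genes. The 10294 genes that reached a normalised count of 10 in either library were compared, and 9 of the 10 members were among them. *Fosb* did not reach 10 in either library. Of the 9, 5 (*Fosl2*, *Jun*, *Junb*, *Jund*, *Egr1*) reached 10 in both libraries. *Fos*, *Fosl1*, *Atf3* and *Myc* reached it in WT+AKI alone, and a gene that enters in this way had to be lower in TG+AKI. A gene was called where its log2 value differed by 2-fold or more. Of the 9 members compared, 7 were called lower and 0 higher, where 7.12% of all genes compared were called lower and 5.74% higher. Of the 5 members present at 10 in both libraries, 4 were called lower. The 7.12% also counts genes that reached 10 in WT+AKI alone. The share among all genes at 10 in both libraries was not computed. The median log2 fold change of all genes compared was 0.01.

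*Fosl1* was the 6th lowest of the 10294 log2 fold changes. *Atf3* (-3.33) was the 59th lowest and *Myc* (-2.66) the 109th. *Fosl2* (-2.51), *Junb* (-1.98), *Jun* (-1.74) and *Egr1* (-1.73) followed, and 2.82% of all genes compared lay at or below *Egr1*. *Jund* (-0.79) and *Fos* (-0.68) were lower by less than 2-fold, with 9.85% and 11.9% of genes at or below them.

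**Figure D2:**
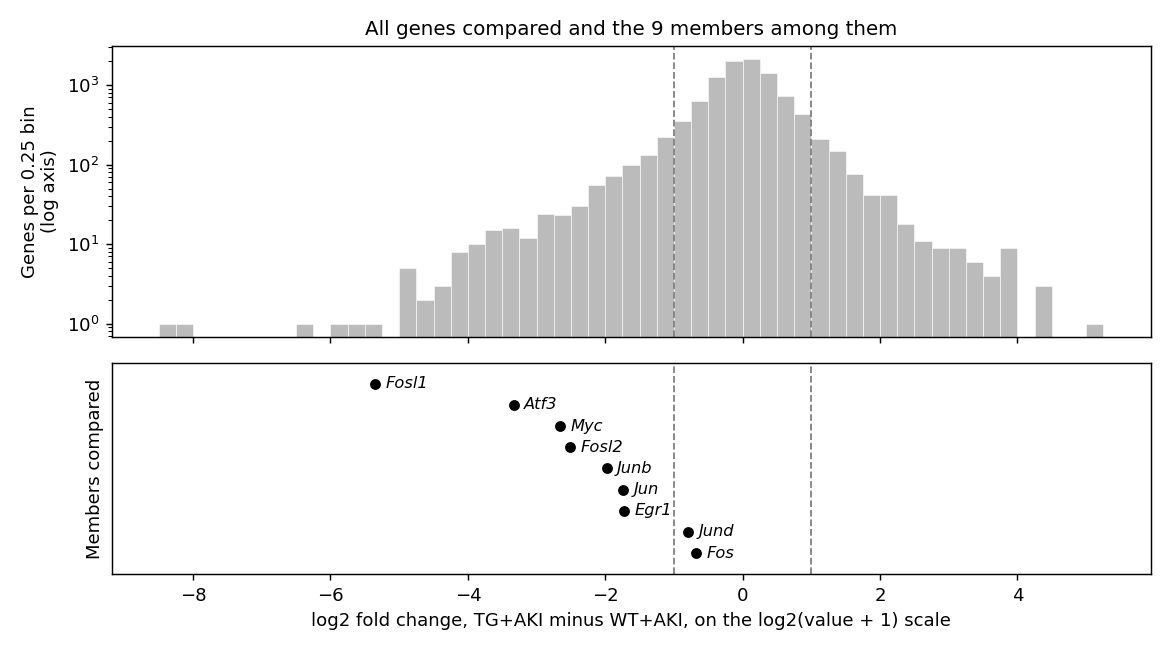
Histogram of the log2 fold changes of the 10294 genes compared (top, number of genes per bin of 0.25 on a log axis) and those of the 9 members among them (bottom, 1 point each); dashed lines mark 2-fold. The members run from -5.35 (*Fosl1*) to -0.68 (*Fos*), and 7 of them lie left of the lower line.

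Levels of different genes were compared per kb of the longest annotated transcript. In WT+AKI the highest level per kb was that of *Jund* (54.8), followed by *Junb* (37.6) and *Jun* (27.8). *Fosl1* (22.1 [21.1 to 23.1]) and *Egr1* (21.7 [21 to 22.3]) were next and did not differ beyond counting error. *Myc* (15.4) came before *Atf3* (13.7 [12.9 to 14.5]) and *Fosl2* (13.6 [13.1 to 14]), which again did not differ beyond counting error. *Fos* (5.26) and *Fosb* (1.72) had the lowest levels per kb.

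In TG+AKI the first 3 places were held by *Jund* (31.4 per kb), *Junb* (9.11 [8.37 to 9.91]) and *Jun* (8.11 [7.57 to 8.67]), and the intervals of *Junb* and *Jun* overlapped. *Egr1* (6.39 per kb) was 4th and *Fos* (3.11 per kb) 5th. *Fosl1*, 4th in WT+AKI (3rd or 5th with other transcript lengths), was last in TG+AKI at 0.0162 per kb. *Fosl2* (2.25 [2.06 to 2.46]) and *Myc* (2.08 [1.77 to 2.43]) followed *Fos* with overlapping intervals, and *Atf3* (0.913) and *Fosb* (0.295) were lower.

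The make-up of the Fos family thus differed between the libraries. The summed level per kb of the 4 Fos genes was 42.6 in WT+AKI and 7.51-fold lower, 5.67, in TG+AKI. In WT+AKI *Fosl1* made up 51.8% of that sum, *Fosl2* 31.8%, *Fos* 12.3% and *Fosb* 4.02%. In TG+AKI *Fos* made up 54.8% and *Fosl2* 39.7%, with 5.21% for *Fosb* and 0.285% for *Fosl1*. With the union of annotated exons as the length, the Fos sum was 7.81-fold lower in TG+AKI, and *Fosl1* made up 57.6% in WT+AKI. With the median length of coding transcripts, the sum was 10.1-fold lower and that share of *Fosl1* was 64.2%. The Jun genes summed to 120.2 per kb in WT+AKI and 2.47-fold lower, to 48.6, in TG+AKI. *Jund* made up 45.6% of the Jun sum in WT+AKI and 64.6% in TG+AKI, whereas *Junb* made up 31.3% and 18.8% and *Jun* 23.2% and 16.7%.

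**Figure D3:**
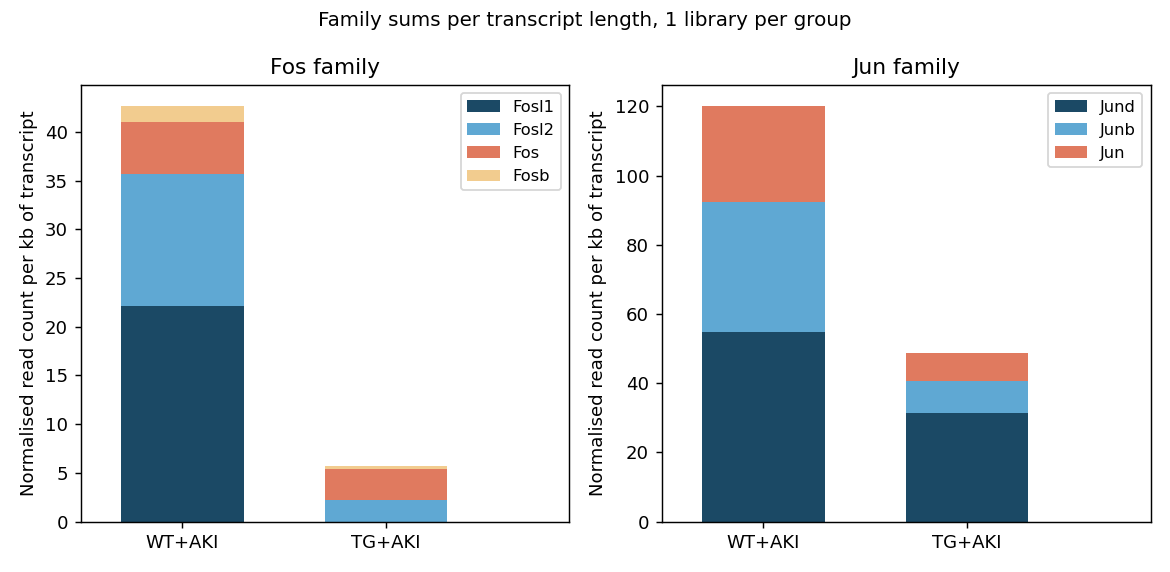
Summed normalised read count per kb of transcript of the Fos genes (left) and the Jun genes (right) in WT+AKI and TG+AKI, 1 library each, stacked by gene. The Fos sum is 42.6 in WT+AKI, mostly *Fosl1* and *Fosl2*, and 5.67 in TG+AKI, mostly *Fos* and *Fosl2*, and the Jun sum is 120.2 and 48.6.

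On GRCm38.p6 the RefSeq genes of the Fos family lie on 4 chromosomes, *Fos* at chr12:85473890-85477274, *Fosb* at chr7:19302696-19310118, *Fosl1* at chr19:5447698-5455938 and *Fosl2* at chr5:32136472-32157840. *Jun* lies at chr4:95049036-95052222, and *Junb* (chr8:84976909-84978748) and *Jund* (chr8:70697739-70700616) share a chromosome. *Atf3* lies at chr1:191170296-191183333 and *Myc* at chr15:61985341-61990361. The longest transcripts of the Fos genes and *Atf3* have 4 exons, that of *Myc* 3 and that of *Egr1* 2.

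The 3′ untranslated regions of the members were searched for the pentamer ATTTA, the core of the AU-rich elements known to shorten the life of many immediate early mRNAs. The members held a median of 2.2 ATTTA per kb of 3′ untranslated region, and the 9887 compared genes with an annotated 3′ untranslated region held a median of 1.35 per kb. Of the 10 members, 9 lay above that median. By plain count per gene the members did not stand out, with a median of 2 ATTTA in both sets. The median 3′ untranslated region of the compared genes was 1227 bases, so the density depends on the length. *Fos* had the highest density with 4 ATTTA in 815 bases (4.91 per kb), and 5.90% of compared genes had at least as many per kb. *Myc* (4.52 per kb) and *Junb* (4.12 per kb) followed with 2 each, and *Jun* had 4 (3.24 per kb). *Fosb*, with 1 in 2145 bases (0.466 per kb), was the member below the median per kb. *Fosl1*, with the largest difference between the libraries, had 1 ATTTA (1.57 per kb).

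Genes that act with the members or are induced with them were examined as lists, chosen with earlier results of these data known. Among other immediate early genes, 8 of the 9 compared were called lower in TG+AKI and 0 higher, with a median log2 fold change of -1.96 (15 genes listed, 13 with a row). Over all genes compared, 7.12% were called lower. With a pseudocount of 10, 5 of the 9 were called lower, with a median of -1.02. *Btg2*, *Ier5* and *Ier3* reached 10 in both libraries and the other compared genes in WT+AKI alone, so that these had to be lower. *Egr2*, a relative of *Egr1*, had normalised counts of 12.5 and 0.362, 34.4-fold lower [19.5 to 66.9]. *Btg2*, an antiproliferative gene, had 274 and 34.1, 8.02-fold lower [7.55 to 8.53]. *Phlda1* had 23.7 and 3.74, 6.33-fold lower [5.25 to 7.69]. *Ier3* (34.4 and 35.5) was the compared gene that was not called, and its ratio of 1.03 [0.954 to 1.11] turned below 1 under equal totals. The next highest, *Csrnp1*, had 22.4 and 7.73.

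Of the related bZIP partners and repressors, 2 of 5 compared genes were called lower and 0 higher, against 7.12% lower over all genes compared. The 2 called were the small Maf genes *Maff* (24.6 and 1.69, 14.5-fold lower [11.1 to 19.4]) and *Mafk* (54.9 and 23.3, 2.35-fold lower [2.17 to 2.56]). *Maff* passed the filter on normalised counts in WT+AKI alone, so that it had to be lower. The other compared genes of this list passed it in both libraries, and only *Mafk* among those was called. *Mafg*, the third small Maf gene, had normalised counts of 129.6 and 134, with an interval of the ratio from 0.993 to 1.08. *Atf2* (48.5 and 59.0) and *Atf7* (51.4 and 48.3), bZIP partners of Jun proteins, differed by less than 2-fold. The direction of *Mafg* changed under equal totals, that is, when both columns were scaled to the same sum.

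Kinases and factors known to act upstream of the members were examined next. Of 10 MAP kinases and their kinases, 1 was called lower and 0 higher, near the 7.12% called lower over all genes compared. The gene called was *Map3k1*, with normalised counts of 87.0 and 35.3, 2.47-fold lower [2.31 to 2.64]. *Map2k4* (72.4 and 57.7) and *Map2k1* (53.0 and 48.2) were lower by less than 2-fold, and *Mapk14* (86.8 and 125) and *Mapk9* (52.6 and 64.7) were the highest of the list. The median log2 fold change of the MAP kinase list was 0.09, and it was -0.17 under equal totals. Of the 8 SRF and CREB factors, 0 were called in either direction, with a median of -0.39. Under equal totals 1 was called lower, with a median of -0.65. *Crem* (23.3 and 12.6), *Mrtfb* (35.1 and 21.7) and *Elk4* (28.3 and 18.5) were the lowest of them. *Creb1* (44.2 and 48.8) and *Elk1* (10.5 and 11.8) were the highest, and their direction changed under equal totals. The EGR corepressors *Nab1* (52.3 and 43.8) and *Nab2* (22.8 and 13.9) were not called.

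Of 16 genes known as AP-1 targets, 14 had a row and 10 were compared. Of these 10, 8 were called lower and 0 higher, against 7.12% lower over all genes compared. The median log2 fold change of the 10 was -3.07. The median was -1.75 with a pseudocount of 10 and -2.10 with no filter. *Plaur*, *Timp1*, *Cd44* and *Sphk1* reached 10 in WT+AKI alone, so that these had to be lower. The other compared targets reached it in both libraries, and all of those but *Plau* and *Ccnd1* were called lower. *Plaur*, the urokinase receptor, had normalised counts of 62.5 and 2.54, 24.6-fold lower [19.8 to 31.0]. *Cd44*, a hyaluronan receptor, had 36.9 and 1.45, 25.5-fold lower [19.1 to 34.7]. *Spp1*, which encodes osteopontin, had 10182.6 and 671, 15.2-fold lower [15.0 to 15.4]. *Plau*, the urokinase itself (537 and 458), and *Ccnd1* (257 and 196) were lower by less than 2-fold. *Mmp13*, named after its value was seen, was too low to be compared and was higher in TG+AKI, with 10 and 42 reads. The other targets too low to be compared were lower in TG+AKI, *Mmp3* (125 and 12 reads), *Mmp9* (37 and 5) and *Il11* (61 and 6).

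Partners and targets of MYC were also listed. Of its network partners and antagonists, 0 of 7 were called, where 7.12% of all genes compared were called lower and 5.74% higher. The median of the network list was 0.12 and changed to -0.14 under equal totals. *Mxi1* (43.5 and 70.7) and *Mlx* (37.9 and 46.4) were the highest, and *Mxd4* (39.2 and 28.0), *Mnt* (27.0 and 20.7) and *Mga* (54.8 and 50.9) the lowest. Of 12 MYC targets, mostly of ribosome biogenesis, 2 were called lower and 0 higher, against the same 7.12% lower over all genes compared. The median of the targets was -0.61, with 11 of the 12 below 0. The number of targets called lower was 5 under equal totals, 4 with the median ratio of abundant genes set to 1 and 0 with a pseudocount of 10. *Cad* (35.3 and 14) and *Nop58* (48.9 and 23.2) were those called, *Gnl3* (47.2 and 23.5) came next, and *Odc1* (394 and 418) and *Polr1b* (26.5 and 22.3) were the highest. The direction of *Odc1* changed under equal totals.

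**Figure D4:**
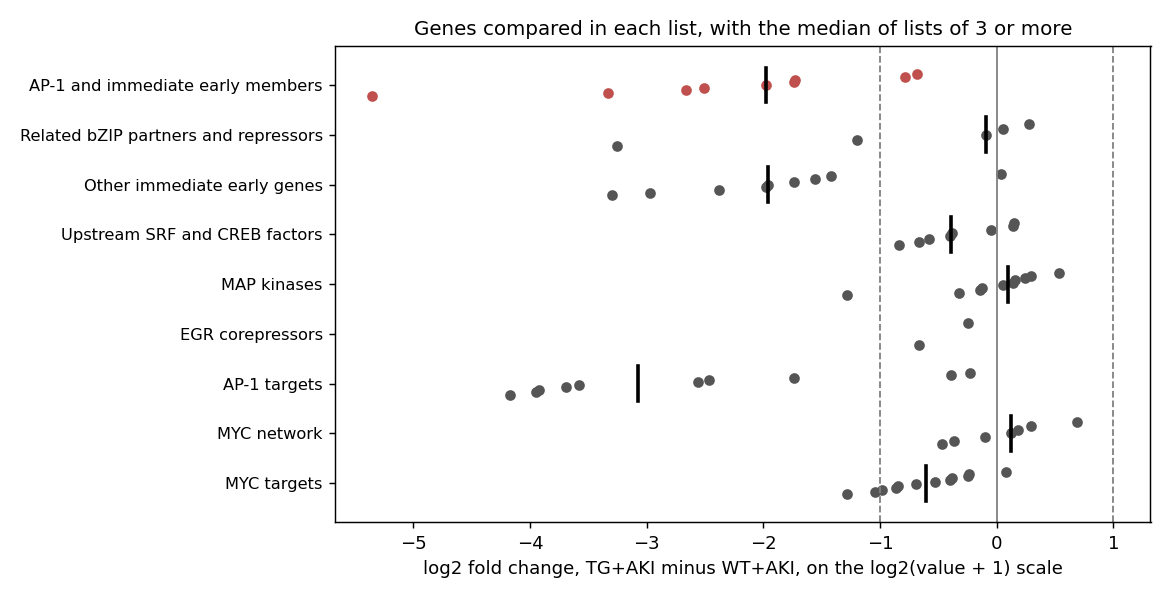
Log2 fold changes (TG+AKI minus WT+AKI) of the compared members (red) and of the compared genes of each list (grey), 1 point per gene; thick bars are medians of lists with at least 3 genes, and dashed lines mark 2-fold. Medians are -1.98 for the members, -1.96 for other immediate early genes and -3.07 for AP-1 targets. Those of MAP kinases and the MYC network are 0.09 and 0.12. Several members, other immediate early genes and AP-1 targets reached 10 in WT+AKI alone, so that these had to be lower. All compared MAP kinases and MYC network genes reached it in both libraries. With no filter the medians were -1.56 (other immediate early genes), -2.10 (AP-1 targets), 0.09 (MAP kinases) and -0.14 (MYC network).

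Markers of tubular injury, some macrophage markers and *Col1a1* were lower in TG+AKI beside the members, and several markers of tubule segments were higher. In bulk RNA, fewer cells of a type and less RNA per cell cannot be told apart. The 6 proximal tubule markers (*Lrp2*, *Cubn*, *Slc34a1*, *Slc5a2*, *Slc5a12*, *Slc22a6*) were all called higher in TG+AKI, and their normalised counts summed to 2335.7 and 11047.2. *Lrp2* (megalin) had 644 and 2753.7 and *Slc34a1*, a phosphate transporter, 764 and 5396.7, and the other 4 had ratios from 2.30 (*Slc5a2*) to 4.62 (*Slc5a12*). The 4 tubular injury markers were all called lower, with sums of 1829.4 and 5.53. All 4 reached 10 in WT+AKI alone, which fixes their direction. *Havcr1* (KIM-1) had 1168.8 and 2.78, *Lcn2* (NGAL) 249.8 and 1.87, *Krt20* 399 and 0.362 and *Sox9* 11.6 and 0.513.

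Of 5 macrophage markers, 3 were called lower, with sums of 125 and 65.8. These 3 reached 10 in WT+AKI alone, which fixes their direction, and the 2 that reached it in both libraries were not called. *Cd68* had 37.1 and 1.39, *Adgre1* 10.9 and 4.14 and *C1qa* 18.2 and 6.73. *Csf1r* had 37.5 and 43.0. *C1qb*, with 21.2 and 10.5, was lower by a ratio of 0.494 [0.435 to 0.560], and its log2 fold change of -0.95 fell just short of a call. Of 3 fibroblast and mural markers, *Col1a1* was called lower (47.8 and 11.1), and *Pdgfra* (97.7 and 59.0) and *Pdgfrb* (114 and 61.3) were not. Neutrophil markers were low, with sums of 7.38 and 1.42 over *S100a8*, *S100a9* and *Csf3r*, while *Ly6g* and the T cell marker *Cd3d* were not analysed here. *Cd3e*, *Cd4* and *Cd8a* of T cells summed to 1.01 and 1.57, *Cd79a*, *Cd79b* and *Ms4a1* of B cells to 1.30 and 1.48, and the erythroid genes *Hba-a1* and *Hbb-bs* to 1.75 and 3.38. The endothelial markers *Pecam1*, *Cdh5*, *Kdr* and *Emcn* summed to 228 and 243, with none called. Of the distal segments, *Umod* and *Slc12a1* summed to 1822.4 and 2969.7, and *Slc12a3* and *Aqp2* to 252 and 685. *Slc12a1* (ratio 2.65) and *Slc12a3* (ratio 5.15) were called higher, and *Umod* (1.35) and *Aqp2* (1.16) were not. No gene of the deposited table was at 0 in either library, so no marker with a value could be at 0. The part of these markers in the values of the members was not tested.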

How the data were processed

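The authors deposited 1 table of normalised read counts, a scaled signal value per gene and library, with NCBI Gene IDs. By the submitters' notes and study methods, reads of a stranded mRNA kit were aligned with STAR 2.7.3a to mm10 and counted with HTSeq. The same sources name DESeq2 for the normalisation, and also edgeR, Cufflinks 2.2.1 and FastQC. The deposited columns sum to 909104 (WT+AKI) and 1099984 (TG+AKI). Their values are not reads divided by DESeq2 size factors, which were 1.14 and 0.879 for the recovered reads. Which tool scaled the deposited values was not established here. Annotation and strand setting of the counting were not given in the sources used here. Within each column all values were integer multiples of 1 step (100% within 0.01), and division by it gave the reads.

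The filter was a normalised count of 10 in at least 1 library, about 424 reads in WT+AKI and 331 in TG+AKI. Calls used log2(value + 1) at 2-fold. Ratios carry Clopper-Pearson intervals of the conditional binomial, and levels per kb exact Poisson intervals. An exact binomial test on reads, which compares the 2 libraries and not the conditions, gave an adjusted p under 0.05 for 8291 of 10294 genes. Annotation came from GENCODE M21 and RefSeq, both on GRCm38 (mm10). The procedures were tested on simulated data. Python 3.11.15, numpy 2.4.6, scipy 1.17.1, pandas 2.3.3 and matplotlib 3.10.9 were used.

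The members and lists were chosen with earlier results of these data known. Named are all members, all genes of lists of up to 6, and in longer lists the 3 lowest and 2 highest log2 fold changes among compared genes. One marker list is not reported here.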

Additional observations from a re-analysis of the deposited data

How the results depend on the processing

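No paired analysis was possible because each group holds 1 library. All 10 members stayed lower in TG+AKI under the 5 alternatives for single genes (pseudocounts of 0.1 and 10, equal totals, a median ratio of 1 among genes above 100, DESeq2 size factors). Of the 50 values recomputed, 26 moved beyond counting error. Equal totals shift the log2 of the plain ratio by -0.275 and the median ratio setting by -0.144, and low genes shift by less once 1 is added. Of the members, 7 were called lower under most settings, 8 under equal totals, 8 of 10 with a filter of 1 or none, and 4 of 5 with a filter of 50, which compares fewer genes.

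Of all genes, 408 were lower and 372 higher with a pseudocount of 10, against 733 and 591 as reported. Under equal totals 1103 were lower and 368 higher. With no filter, and with a filter of 1, 1150 were lower. With a filter of 50, 295 were lower and 374 higher. These shifts follow from the construction of each setting. A filter on the mean of both libraries and the binomial test, added after the data were seen, left 7 members called lower, of 8 and of 9 compared. The median of the MAP kinase list turned to -0.17 under equal totals and -0.05 with a median ratio of 1. That of the MYC network turned to -0.14, to -0.02, and with no filter or a filter of 1 to -0.14 and -0.10. Of 204 list values recomputed, 166 stayed within the limits used, 32 moved and 6 changed sign. The share of *Fosl1* in the Fos sum of TG+AKI was 0.477% with the median length of coding transcripts. Of the 10 members, 8 exceeded the ATTTA median when the transcript with the highest density was taken, and TATAAA was found in 1 member within the 200 bases before the start. At 1 read, the depth limits the size of the *Fosl1* difference.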
